A study of Mus musculus with 10 samples.

Results

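XBP-1 occupancy at 8 genes of the PPARα axis was followed through chromatin immunoprecipitation and sequencing of mouse liver. The genes were Ppara, Cpt1a, Cpt2, Acadm, Hadha, Pdk4, Angptl4 and Fgf21, chosen by name for their place in the pathway, with no threshold on a measured value. A peak was assigned to a gene when its summit lay from 5 kb before to 5 kb after the gene's span on build mm10. All 8 genes were found among the 21883 nuclear protein-coding genes of the RefSeq annotation. The 8 immunoprecipitated libraries comprised 2 each from fasted mice (Fasted), fed mice (Fed), mice with a liver-specific knockout of Ern1 (Ern1-LKO) and their wild-type controls (WT). Another 2 libraries were input DNA from wild-type liver. All mice were of strain C57BL/6J, and the Fasted and Fed mice were wild type. The antibody was raised against XBP-1s, the spliced form. The labels give no age, no length of the fast, no feeding state for the Ern1-LKO and WT mice and no Cre driver for the knockout. They do not say whether replicates came from separate animals, so a p-value here reflects no more than the spread among the libraries at hand, possibly technical. Peak lists hold no RNA levels, so the liver label could not be checked against marker genes, and the Ern1 deletion itself could not be checked either.

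PPARα, encoded by Ppara, is a nuclear receptor that binds fatty acids and, as a heterodimer with RXR, turns on genes of fatty acid oxidation in liver. During a fast the liver takes up fatty acids, moves them into mitochondria with the carnitine palmitoyltransferases, shortens them by β-oxidation and converts the acetyl-CoA into ketone bodies, and it also secretes the hormone FGF21. XBP-1s is a basic leucine zipper factor of the unfolded protein response, made when the endoribonuclease IRE1α, the product of Ern1, splices Xbp1 mRNA.

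The lists differed widely in length. They held 53973 and 19237 peaks in Fasted replicates 1 and 2, 82975 and 47357 in Fed, 698 and 30796 in Ern1-LKO, and 6258 and 30327 in WT. Kept tags ranged from 4.34M (M, 1e6) in Ern1-LKO replicate 2 to 17.4M in Fed replicate 1. The short list of Ern1-LKO replicate 1 came from 12.0M kept tags. Fasted and Fed libraries were called against the same input, and Ern1-LKO and WT libraries against the other input, so groups were compared only within these pairs. At Ern1, a peak was called in 6 libraries, among them Ern1-LKO replicate 2 with a 22.3-fold enrichment. In tissue of mixed cells, fewer cells with an occupied site and weaker occupancy per cell cannot be told apart. Fold enrichment here is the peak caller's own value for each peak, the ratio of its pileup to the local background. It was used to describe and rank peaks within a list.

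Peaks lay near all 8 genes in 5 of the 8 libraries. In Fasted liver, 8 genes had a peak in replicate 1 and 4 in replicate 2, against 8 genes in each Fed replicate. The corresponding shares of all genes were 73.1% and 43.6% in Fasted and 76.1% and 71.2% in Fed. The genes without a peak in Fasted replicate 2 were Hadha, Pdk4, Angptl4 and Fgf21. The mean was 6 ± 2.83 genes in Fasted and 8 ± 0 in Fed (SD, n = 2 each), a difference of -2 (exact two-sided permutation test, p = 1, where the smallest possible p is 0.33).

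In the knockout experiment, Ern1-LKO replicate 1 had a peak near 0 of the 8 genes and replicate 2 near all 8, against 6 genes in WT replicate 1 and 8 in WT replicate 2. Of all genes, 3.58% and 62.4% had a peak in the Ern1-LKO libraries and 19.6% and 65.0% in the WT libraries. The genes without a peak in WT replicate 1 were Hadha and Pdk4. Means were 4 ± 5.66 genes in Ern1-LKO and 7 ± 1.41 in WT (SD, n = 2 each), a difference of -3 (exact two-sided permutation test, p = 1). Without Ern1-LKO replicate 1 the difference was 1, in the other direction.

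In Fasted, 4 of 8 genes (Ppara, Cpt1a, Cpt2 and Acadm) had a peak in both libraries, beside 43.2% of all genes. All 8 did so in Fed, beside 68.7% of all genes, 0 in Ern1-LKO, beside 3.54%, and 6 in WT, beside 18.3%. When the peaks of both replicates had to overlap, 3 genes were left in Fasted (42.1% of all genes), 8 in Fed (65.5%), 0 in Ern1-LKO (3.41%) and 3 in WT (13.1%). The 3 genes were Ppara, Cpt1a and Acadm in both Fasted and WT. Ppara, Cpt1a, Cpt2 and Acadm had a peak in 7 libraries, all but Ern1-LKO replicate 1, as did 14.8% of all genes in at least 7. None of the 8 genes had a peak in all 8 libraries, as 2.64% of all genes did. No gene was called in both Fasted libraries and neither Fed library (0.0731% of all genes) or in both Fed and neither Fasted library (1.20%). In the knockout experiment, 0 genes had a peak in each Ern1-LKO replicate but no WT replicate (0% of all genes), and 0 had the opposite pattern (0.896%).

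**Figure D1:**
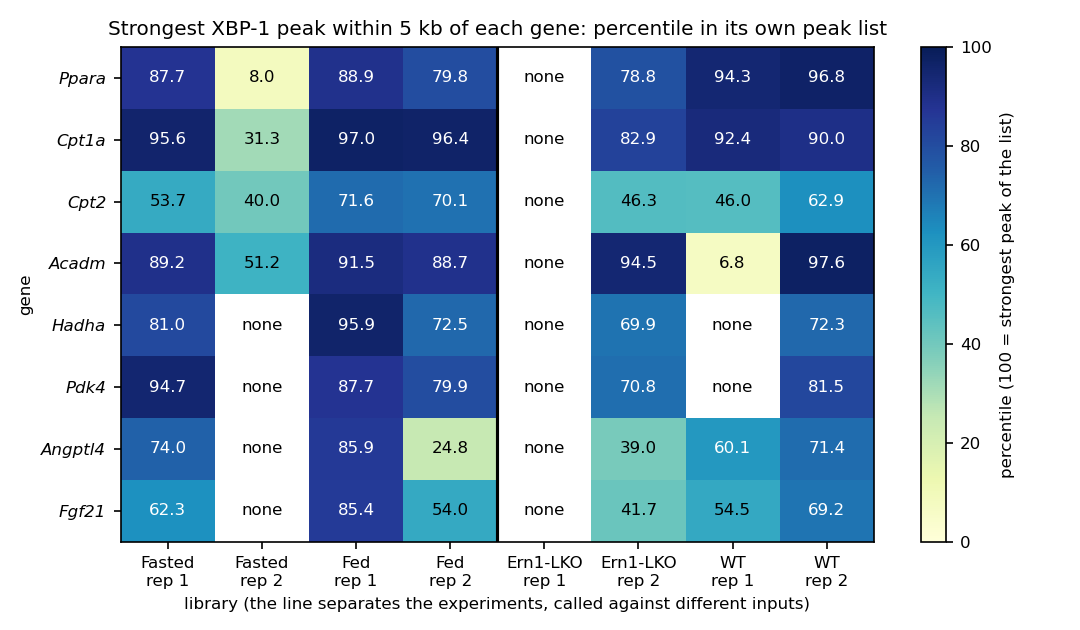
Percentile of the strongest peak within 5 kb of each gene, for each library. A percentile near 100 is the top of that library's own list, and a cell marked none means no peak. Ern1-LKO replicate 1 is marked none for all 8 genes, and Acadm in WT replicate 2 has the highest percentile, 97.6. Percentiles of lists of different length show no change between libraries.

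Sites were counted as well as genes. Fasted libraries held 26 and 6 peaks in the 8 windows, against 49 and 21 in Fed, a difference in means of -19 (exact two-sided permutation test, p = 0.67). Ern1-LKO libraries held 0 and 24 peaks, against 12 and 17 in WT, a difference of -2.5 (exact two-sided permutation test, p = 1) that became 9.5 without Ern1-LKO replicate 1. The Fasted minus Fed difference was -1 among peaks with a −log10 q of at least 10 (16 and 2 in Fasted, 11 and 9 in Fed), -3 at a fold of at least 5 (19 and 4 in Fasted, 14 and 15 in Fed), and -2 within 1 kb of a span's ends. The Ern1-LKO minus WT difference was -4 at that −log10 q and 0 within 1 kb of the ends. The longest list, Fed replicate 1, had the most peaks in the windows and the shortest list had none. With every list reduced to its top 19237 peaks, 6 and 4 genes were called in Fasted against 7 and 6 in Fed, a difference of -1.5 (exact two-sided permutation test, p = 0.67). With the top peaks taken by fold, the counts were 5 and 4 in Fasted against 5 and 3 in Fed, a difference of 0.5 in the other direction. With peaks ranked by q, the top 19237 called 57.4% and 43.6% of all genes in Fasted and 58.6% and 56.6% in Fed. The shares of all genes with top peaks taken by fold were not computed. Among the top 698 peaks, 0 and 0 genes were called in Ern1-LKO against 2 and 0 in WT, a difference of -1 (exact two-sided permutation test, p = 1), and these were Ppara and Cpt1a in WT replicate 1. The matching shares of all genes were 3.58% and 3.83% in Ern1-LKO and 3.54% and 4.01% in WT.

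The strongest peaks of the 8 genes were moderate by the standard of XBP-1's established targets. Those 10 genes, among them Hspa5, which encodes the chaperone BiP, Dnajb9, a co-chaperone of BiP, and Xbp1 itself, had a peak in all 8 libraries. The median fold of the strongest peak per gene was 10.3 and 6.29 for the PPARα-axis genes in the Fasted libraries, beside 46.7 and 16.6 for the established targets. In Fed the medians were 5.09 and 6.71 beside 34.2 and 51.5. In Ern1-LKO replicate 2 the median was 8.85 beside 27.3, and in WT the medians were 6.23 and 9.14 beside 19.6 and 37.5. In Ern1-LKO replicate 1, where no PPARα-axis gene had a peak, the established targets had a median fold of 8.11. The highest PPARα-axis gene stood below the lowest established target in the Fasted, Fed and second WT libraries and above it in Ern1-LKO replicate 2, at 16.4 against 15.4-fold, and in WT replicate 1, at 14.3 against 12.5-fold.

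**Figure D2:**
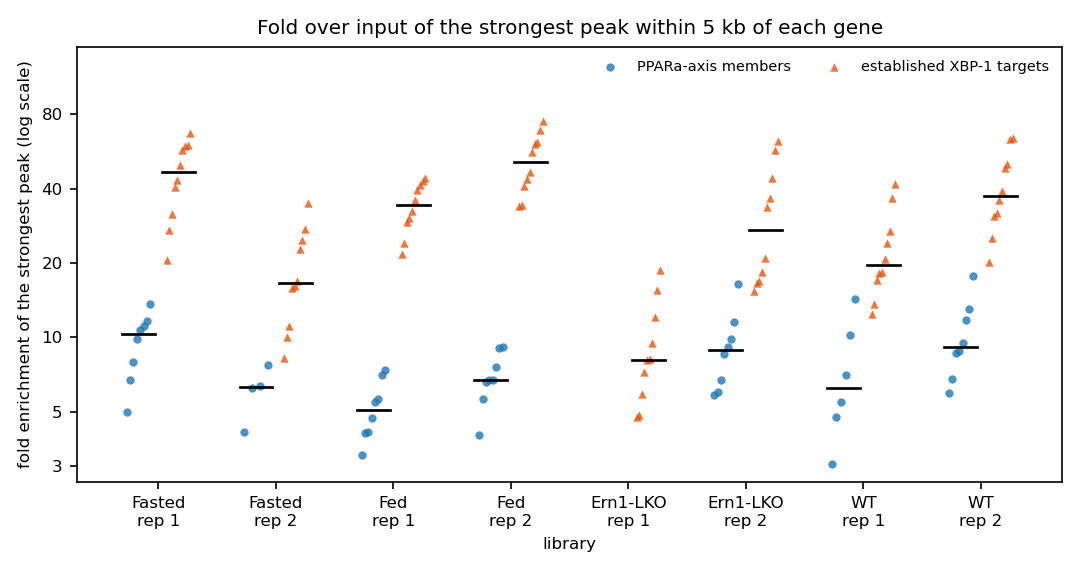
Fold enrichment of the strongest peak within 5 kb of each gene, on a log axis, for the 8 PPARα-axis genes (circles) and 10 established XBP-1 targets (triangles) in each library, with bars at the medians. Circles are missing where a gene had no peak, and the median of the circles lies below that of the triangles in all 7 libraries that have both.

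Within its own list the strongest peak of these genes had a lower median percentile than that of all genes with a peak in all 7 libraries that have both. The median percentile of the strongest peak was 84.4 for the PPARα-axis genes against 85.3 for all genes with a peak in Fasted replicate 1, and 35.7 against 61.8 in Fasted replicate 2. In Fed it was 88.3 against 90.4 and 76.2 against 83.1. In Ern1-LKO replicate 2 it was 70.3 against 78.0, and in WT it was 57.3 against 60.9 and 76.9 against 78.1. The margin was widest in Fasted replicate 2.

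Merging overlapping peaks of the 8 libraries gave 67 regions from 155 peaks. Of these, 42 regions were called in 1 library, and 24 of the 42 belonged to Fed replicate 1, whose list was the longest. In 2 or more libraries, 25 regions were called, and 41.3% of all merged regions of the genome reached that number. In 5 or more libraries, 12 regions were called, and the share of all merged regions at that number was not computed. The start sites of Ppara and Acadm were the 2 regions called in 7 libraries, a number reached by 1.55% of all merged regions. Regions present in each WT replicate but no Ern1-LKO replicate numbered 0 (0.174% of all merged regions), as did those with the opposite pattern (0%). Both Fasted libraries shared 5 of the 67 regions and both Fed libraries 16, beside 13.4% and 22.4% of all merged regions. Both Ern1-LKO libraries shared 0 and both WT libraries 4, beside 0.519% and 2.01% of all merged regions. In the pooled lists, 8 of the 8 genes had a peak in Fasted, 8 in Fed, 5 in Ern1-LKO and 7 in WT, beside 69.0%, 77.3%, 46.4% and 48.6% of all genes in the same order.

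Peaks often sat at start sites. Of the peaks in the 8 windows, 12 of 26 and 3 of 6 in Fasted and 14 of 49 and 9 of 21 in Fed lay within 1 kb of a listed start of any gene. The counts were 16 of 24 in Ern1-LKO replicate 2, and 3 of 12 and 10 of 17 in the WT replicates. Among all peaks in gene windows, that share was 30.0% and 37.6% in Fasted, 23.8% and 32.8% in Fed, 40.4% in Ern1-LKO replicate 2, and 45.0% and 42.5% in WT. Of the 12 peaks of WT replicate 1, 4 (33.3%) overlapped a peak of WT replicate 2, and 4 of the 17 peaks of WT replicate 2 (23.5%) overlapped one of WT replicate 1. The shares over all peaks of these lists were 41.3% and 8.02%. Of the 24 peaks of Ern1-LKO replicate 2, 18 (75.0%) overlapped a peak of WT replicate 2, and 15 of the 17 peaks of WT replicate 2 (88.2%) lay over a peak of the Ern1-LKO library. Over all peaks of these lists the shares were 66.8% and 67.1%.

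**Figure D3:**
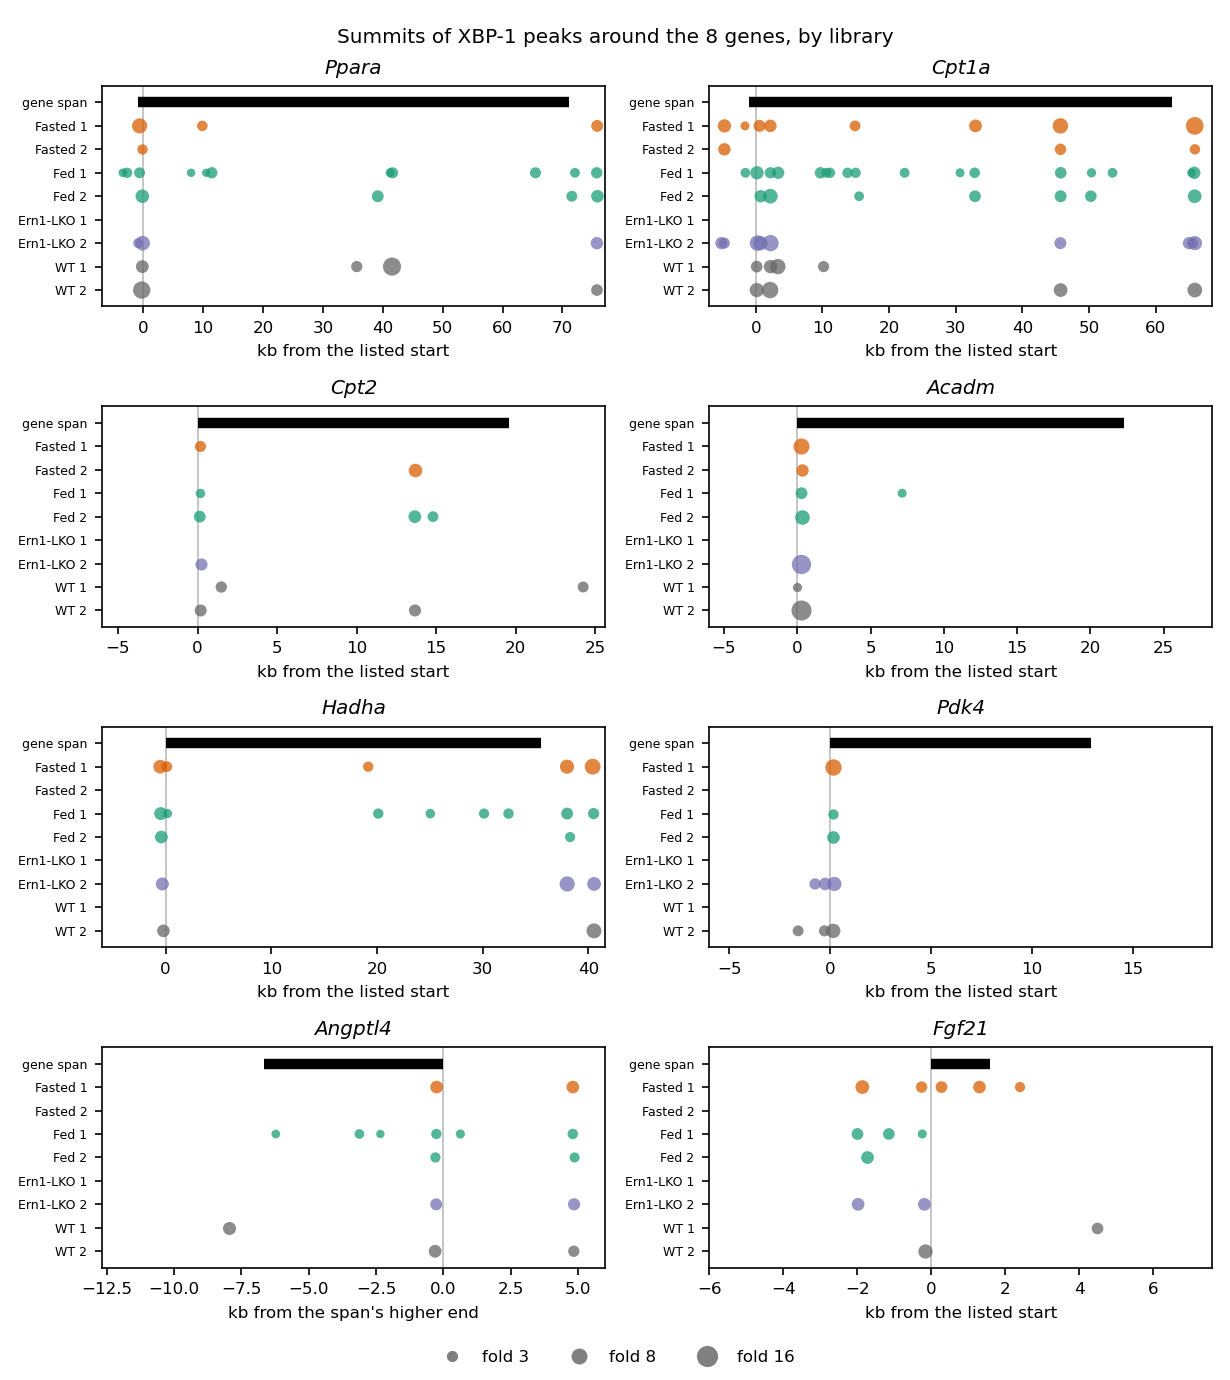
Summits of the peaks in each gene's window by library, placed by distance from the gene's start (for Angptl4, by distance from an end of its span) in kb. Summits of several libraries stack at the starts of Ppara, Acadm, Cpt2 and Pdk4, and Fed replicate 1 has the most summits, 49.

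The 250 bases before the start are printed for the 4 genes whose XBP-1 motif letters lay under a peak, from the RefSeq promoter table on build mm10, 5′ to 3′ on the gene's strand. Capitals mark matches to the core letters CCACG (or its reverse, CGTGG), which occur in the unfolded protein response elements that XBP-1 can bind, and to ACGTG, another core of such elements. In Fgf21 the capitals CACGTGG hold a palindrome that matches ACGTG on both strands and overlaps a reverse CCACG.
Ppara, chr15:85735526-85735775, plus strand: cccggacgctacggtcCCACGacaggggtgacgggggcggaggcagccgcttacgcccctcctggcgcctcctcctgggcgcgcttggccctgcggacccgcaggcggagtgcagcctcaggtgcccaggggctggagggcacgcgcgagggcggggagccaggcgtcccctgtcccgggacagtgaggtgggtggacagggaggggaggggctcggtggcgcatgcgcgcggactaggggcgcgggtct
Acadm, chr3:153944644-153944893, minus strand: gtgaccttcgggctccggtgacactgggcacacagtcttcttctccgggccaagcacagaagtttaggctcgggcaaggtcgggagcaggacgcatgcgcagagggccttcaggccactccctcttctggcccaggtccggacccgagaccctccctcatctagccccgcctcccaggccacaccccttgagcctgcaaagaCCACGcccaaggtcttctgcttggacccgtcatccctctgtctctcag
Pdk4, chr6:5496279-5496528, minus strand: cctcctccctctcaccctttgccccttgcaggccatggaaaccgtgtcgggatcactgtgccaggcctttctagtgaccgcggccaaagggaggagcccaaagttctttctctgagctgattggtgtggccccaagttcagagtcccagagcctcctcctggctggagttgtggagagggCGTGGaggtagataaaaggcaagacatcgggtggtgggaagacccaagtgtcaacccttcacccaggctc
Fgf21, chr7:45615491-45615740, minus strand: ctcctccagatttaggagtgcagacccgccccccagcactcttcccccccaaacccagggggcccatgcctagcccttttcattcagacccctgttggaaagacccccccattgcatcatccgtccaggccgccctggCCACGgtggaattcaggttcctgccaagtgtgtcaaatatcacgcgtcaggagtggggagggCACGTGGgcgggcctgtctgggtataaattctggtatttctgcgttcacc

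Both strands of the 250 bases were searched for 7 of the 8 genes. Over all libraries, these bases held 4 peak summits at Ppara, 3 at Fgf21, 1 at Acadm and 1 at Hadha. At Cpt1a, Cpt2 and Pdk4 they held 0. Sequence at the other summits was not searched, so a missing element says nothing about it. CCACG was found in 5 of 7 (Ppara, Cpt2, Acadm, Pdk4 and Fgf21), and in 28.3% of the 32851 promoter entries of the table. ACGTG was found in 1 of 7, Fgf21, and in 16.6% of entries. Either was found in 5 of 7 genes and 35.2% of entries. The share of G and C in the 250 bases ran from 56.8% at Cpt2 to 76.4% at Ppara among the 7 genes. That share was not computed for the entries, and genes and entries were not matched for it. The entries also outnumber the protein-coding genes counted elsewhere, so they are a different background. Whether the 7 genes hold more matches than entries of like base content was not tested. The longer unfolded protein response element TGACGTGG was in 0 of 7 genes and 0.563% of entries. The endoplasmic reticulum stress elements ERSE and ERSE-II were in 0 of 7 and in 0.113% and 0.0304% of entries. The consensus DR1, the direct repeat that PPARα and RXR bind, was in 0 of 7 and 0.0335%. The Ppara match, 234 bases before the listed start but within the gene's span, lay inside a peak of 7 libraries. The Acadm match, 48 bases before the start, lay inside a peak of both Fed and both WT libraries. The Pdk4 match, 70 bases before the start, was covered in Fasted replicate 1 and both Fed libraries. In Fgf21 the match 112 bases before the start was covered in Ern1-LKO replicate 2 and WT replicate 2, and the palindrome 50 bases before the start in 0 libraries. A match is a description of the letters and no evidence of a bound site.

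Ppara, the receptor itself, spans chr15:85734910-85806851. The start region of Ppara was called in 7 libraries, with summits 113 to 842 bases before the listed start but inside the span. It covers the sequence printed above, which also lies inside the span because the listed start is at 85735776. The fold there was 9.80 and 4.13 in Fasted, 4.73 and 7.60 in Fed, 9.16 in Ern1-LKO replicate 2, and 6.81 and 13.0 in WT. In Fasted replicate 2 the peak ranked 17699 of 19237, near the foot of the list, while in WT replicate 2 it ranked 962 of 30327. In WT replicate 1 the strongest Ppara peak was not at the start. It lay within the gene, 41537 bases after the listed start, with a fold of 14.3 and rank 355 of 6258. The same region was called elsewhere only in Fed replicate 1, at up to 4.83-fold. A further region, 76 to 203 bases from the start of the neighbouring Cdpf1, was called in 5 libraries, with folds of 5.76 in Fasted replicate 1, 5.15 and 6.53 in Fed, 6.34 in Ern1-LKO replicate 2 and 5.54 in WT replicate 2.

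Cpt1a spans chr19:3322326-3385735 and encodes the liver form of the outer-membrane carnitine palmitoyltransferase, the rate-controlling entry of long-chain fatty acids into mitochondria. It had the most regions of the 8 genes, 20, of which 4 were called in 6 libraries. Its span of 63410 bases is long beside the median of 20.9 kb for the 8 genes. Many of the regions were called in only 1 library, mostly Fed replicate 1, which had the longest list. The listed start of Cpt1a, at 3323301, lies inside its span. Just after that start, with summits 132 to 731 bases downstream, the fold was 5.89 in Fasted replicate 1, 7.39 and 6.28 in Fed, 10.2 in Ern1-LKO replicate 2, and 5.54 and 8.53 in WT. Further in, 2139 to 2204 bases after the start, it was 6.43 in Fasted replicate 1, 5.07 and 9.16 in Fed, 11.5 in Ern1-LKO replicate 2, and 7.41 and 11.7 in WT. Fasted replicate 2 and Ern1-LKO replicate 1 lacked both of these regions.

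The other 2 Cpt1a regions of 6 libraries were called in both Fasted libraries and were missing from WT replicate 1. Deep in the gene, 45691 to 45737 bases after the start, the fold was 10.2 and 5.26 in Fasted, 5.45 and 5.77 in Fed, 5.85 in Ern1-LKO replicate 2 and 7.87 in WT replicate 2. Beyond the far end, 37 to 240 bases from the start of the neighbouring gene Tesmin, the fold was 13.6 and 4.21 in Fasted, 6.25 and 7.86 in Fed, 8.49 in Ern1-LKO replicate 2 and 9.27 in WT replicate 2. That site gave Cpt1a its strongest peak in Fasted replicate 1, although it lay nearer to the start of Tesmin than to that of Cpt1a.

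Cpt1a also held the regions that separated Fasted from Fed by calls in both replicates. A region 4712 to 5164 bases before the start was called in both Fasted libraries, at 7.30 and 6.33-fold, and in neither Fed library, a pattern of 0.552% of the 121319 merged regions. Ern1-LKO replicate 2 called it as well, at 6.05-fold 5164 bases before the start and at 4.92-fold 4726 bases before it. The Fasted summits lay 4712 and 4717 bases before the start. The authors' list of the pooled Fed libraries held a peak there, at 3.66-fold. Conversely, a region 50259 to 50362 bases after the start was called in both Fed libraries, at 3.19 and 5.37-fold, and in neither Fasted library, as were 2.12% of all merged regions. WT replicate 1 had its strongest Cpt1a peak, of 10.2-fold, 3302 bases after the start, in a region shared only with Fed replicate 1, at 6.23-fold.

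Cpt2, at chr4:107903982-107923589, encodes the inner-membrane carnitine palmitoyltransferase, which re-forms acyl-CoA inside the mitochondrion. A region 135 to 224 bases after its start was called in 5 libraries, with folds of 4.97 in Fasted replicate 1, 3.33 and 5.63 in Fed, 5.99 in Ern1-LKO replicate 2 and 5.93 in WT replicate 2. Its peaks in the other 2 libraries lay elsewhere. Fasted replicate 2 had a 7.70-fold peak 13664 bases after the start, in a region also called in Fed replicate 2 at 6.72-fold and WT replicate 2 at 5.97-fold. WT replicate 1 had peaks of 4.75 and 5.18-fold that no other library overlapped. The presence of Cpt2 in both Fasted and both WT libraries therefore rested on different sites.

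Acadm, at chr3:153922353-153944643, encodes the medium-chain acyl-CoA dehydrogenase, which catalyses the opening step of β-oxidation. Like Ppara, it had a region at the start called in 7 libraries. Summits lay 246 to 307 bases after the start, except in WT replicate 1, where the summit lay 26 bases before it. The fold was 11.1 and 6.26 in Fasted, 5.65 and 9.06 in Fed, 16.4 in Ern1-LKO replicate 2, and 3.07 and 17.7 in WT. The highest and the lowest value were thus both from WT. The peak ranked 734 of 30327 in WT replicate 2 but 5835 of 6258 in WT replicate 1. For Ern1-LKO replicate 2 its rank was 1709 of 30796. Besides it, the window held 1 more region, called in Fed replicate 1.

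Hadha, at chr5:30119423-30154980, encodes the α subunit of the mitochondrial trifunctional protein, and Hadhb, its neighbour, encodes the β subunit. A region 201 to 505 bases before the Hadha start, which is 33 to 232 bases from the start of Hadhb, was called in 5 libraries. Its fold was 7.89 in Fasted replicate 1, 7.01 and 6.70 in Fed, 7.07 in Ern1-LKO replicate 2 and 6.54 in WT replicate 2. The peak cannot be assigned to either gene alone. At the other side of the window, regions inside the span of the neighbour Garem2 were stronger than the start region in Fasted replicate 1, at 10.7-fold, Ern1-LKO replicate 2, at 9.84-fold, and WT replicate 2, at 9.52-fold. In these 3 libraries the strongest peak assigned to Hadha thereby lay in another gene. In both Fed libraries the strongest was the start region, also outside the Hadha span. Its Fed summits lay 458 and 396 bases before the Hadha start and 185 and 123 bases from that of Hadhb. The window edge mattered there, because summits of that site 4850 to 4988 bases outside Hadha were counted in 4 libraries, while the Fed replicate 2 summit, 5058 bases outside and 6.87-fold, was not.

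Pdk4, at chr6:5483351-5496278, encodes a pyruvate dehydrogenase kinase that lowers glucose oxidation and is induced by PPARα during fasting. Its start region was called in 5 libraries with summits 122 to 290 bases from the start. The fold was 11.6 in Fasted replicate 1, 4.13 and 6.60 in Fed, 8.54 in Ern1-LKO replicate 2 and 8.77 in WT replicate 2. Within its own list this was percentile 94.7 in Fasted replicate 1, 87.7 and 79.9 in Fed, 70.8 in Ern1-LKO replicate 2 and 81.5 in WT replicate 2. In Fasted replicate 2 the nearest summit was 19.8 kb outside the gene, and in WT replicate 1 it was 33.3 kb outside. Pdk4 was thus called in 1 of 2 Fasted libraries and in both Fed libraries.

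Angptl4, at chr17:33774900-33781575, encodes a secreted inhibitor of lipoprotein lipase. A region near the higher-coordinate end of its span, 248 to 304 bases inside it, was called in 5 libraries, at 6.70-fold in Fasted replicate 1, 4.09 and 4.03 in Fed, 5.82 in Ern1-LKO replicate 2 and 6.75 in WT replicate 2. The same 5 libraries had a peak 4809 to 4876 bases beyond that end, just within the window, with folds of 6.55, 4.24, 3.90, 6.05 and 5.15 in the same order. Fasted replicate 2 and Ern1-LKO replicate 1 had no peak in the window. WT replicate 1 had a 7.02-fold peak 1294 bases beyond the opposite end, which no other library shared.

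Fgf21, at chr7:45613890-45615490, encodes the fasting-induced hormone that signals through FGF receptors and the co-receptor β-klotho. A region 178 to 256 bases before its start, around the 5′ part of the printed sequence, was called in 4 libraries, at 5.25-fold in Fasted replicate 1, 3.03-fold in Fed replicate 1, 6.71-fold in Ern1-LKO replicate 2 and 8.62-fold in WT replicate 2. It was not called in Fasted replicate 2 or Fed replicate 2. Another region, 124 to 373 bases from the start of the neighbouring fucosyltransferase gene Fut1, was called at 7.93-fold in Fasted replicate 1, 5.65 and 6.72 in Fed, and 6.71 in Ern1-LKO replicate 2. The Fed replicate 2 call for Fgf21 rested on that site alone. In WT replicate 1 the Fgf21 peak lay 4492 bases after the start, outside the short gene, at 5.44-fold.

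The rest of the pathway was described from 8 lists holding 69 genes. In both Fasted libraries 33 of them had a peak (47.8%, beside 43.2% of all genes), and in both Fed libraries 60 (87.0%, beside 68.7%). Both Ern1-LKO libraries had a peak at 1 of the 69 (1.45%, beside 3.54%) and both WT libraries at 19 (27.5%, beside 18.3%). The span of a gene sets the width of its window, and the 8 PPARα-axis genes had a median span of 20.9 kb against 17.2 kb for all genes. Spans of the 69 genes were not compared with those of all genes.

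**Figure D4:**
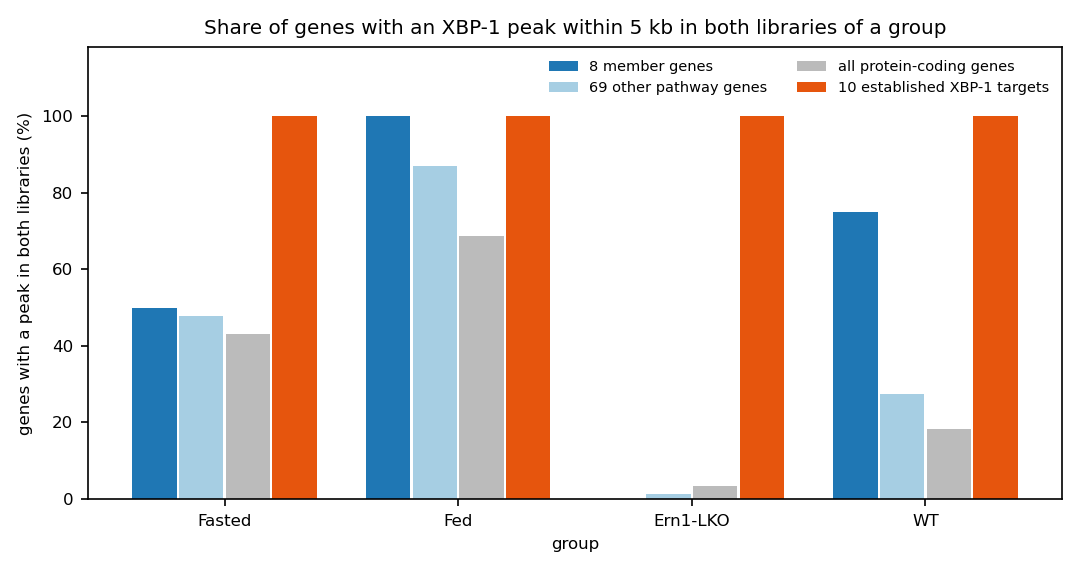
Percent of genes with a peak within 5 kb in both libraries of each group. The sets are the 8 PPARα-axis genes, the 69 other pathway genes, all 21883 protein-coding genes and the 10 established XBP-1 targets. All 10 established targets had a peak in both libraries of every group. For the 69 pathway genes the share is 47.8% in Fasted, 87.0% in Fed, 1.45% in Ern1-LKO and 27.5% in WT.

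Of 15 genes of mitochondrial β-oxidation, 6 had a peak in both Fasted libraries and 14 in both Fed libraries, while 0 did in both Ern1-LKO and 3 in both WT libraries. The highest in the lists were Acsl1, which activates long-chain fatty acids, Acadl, the long-chain acyl-CoA dehydrogenase, and Decr1, the mitochondrial dienoyl-CoA reductase. Acadl had folds of 17.0 and 5.80 in Fasted, 6.51 and 8.02 in Fed, 10.6 in Ern1-LKO replicate 2, and 3.59 and 8.81 in WT. For the 4 ketogenesis genes the counts were 2 in Fasted, 3 in Fed, 0 in Ern1-LKO and 2 in WT. Acat1, the mitochondrial acetoacetyl-CoA thiolase, led them with 16.3 and 14.3 in Fasted, 6.86 and 9.44 in Fed, 15.6 in Ern1-LKO replicate 2 and 16.8 in WT replicate 2. Bdh1, which interconverts acetoacetate and β-hydroxybutyrate, had a peak in 7 libraries.

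Of 12 genes of peroxisomal and ω oxidation, 6 were called in both Fasted, 9 in both Fed, 0 in both Ern1-LKO and 3 in both WT libraries, led by the peroxisomal transporter gene Abcd3, the carnitine acetyltransferase gene Crat and the thiolase gene Acaa1a. Cyp4a12a had no peak in any library. Of 12 further PPARα-induced genes of lipid handling, 3 were called in both Fasted, 10 in both Fed, 0 in both Ern1-LKO and 2 in both WT, led by Mgll, a monoacylglycerol lipase, Plin5, a lipid droplet protein, and Acot2, a mitochondrial acyl-CoA thioesterase. The 10 partners and regulators of PPARα had 8, 10, 1 and 4 in the same order of groups. Ncor1, a corepressor, had a peak in all 8 libraries, at 5.25-fold in Ern1-LKO replicate 1, and was the pathway gene called in both Ern1-LKO libraries. It was followed by the coactivator gene Ppargc1a and the deacetylase gene Sirt1.

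Around Pdk4, the 6 genes of pyruvate dehydrogenase control had 3 called in both Fasted, 6 in both Fed, 0 in both Ern1-LKO and 1 in both WT libraries, and the highest were the phosphatase genes Pdp1 and Pdp2 and the kinase gene Pdk1. Around Angptl4, the 5 genes of angiopoietin-like proteins and lipoprotein lipase control had 1, 3, 0 and 2 in the same order. Lmf1, a maturation factor of lipoprotein lipase, Angptl6 and Angptl8 led them. Around Fgf21, the 5 genes of FGF21 reception had 4, 5, 0 and 2, led by the receptor genes Fgfr4, Fgfr3 and Fgfr1. Fgfr4 had folds of 14.6 and 7.05 in Fasted, 6.49 and 10.9 in Fed, 14.0 in Ern1-LKO replicate 2 and 12.4 in WT replicate 2.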

How the data were processed

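The 10 samples were 8 immunoprecipitated libraries and 2 inputs. Per the submitters' processing notes, alignment was to mm10 and the tools included Bowtie2 2.2.5, MACS2 2.2.1, FastQC 0.11.3 and bcl2fastq, while the file headers name MACS 2.1.1.20160309, with 1 tag kept per position and a q cutoff of 0.05. The columns deposited by the authors hold a pileup signal at the summit, a ratio of that pileup to local background (fold), and −log10 p-values and q-values. No scaling between libraries is stated in these headers. The authors deposited 12 lists, of which 4 pool the replicates of a group and serve only as a side check.

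Summits were assigned to RefSeq gene spans (GRCm38.p6, the assembly of mm10) with Python 3.11.15, numpy 2.4.6, pandas 2.3.3 and scipy 1.17.1. Exons were not used. Peaks overlapping by at least 1 bp were merged, and lists were ranked by q, then fold. The percentile is the share of a list ranked at or below a peak. On simulated data, 2000 of 2000 planted peaks were found in their windows. The genes and lists were chosen with earlier results of these data known. Named pathway genes are the 3 per list with the highest mean percentile over the 8 libraries (absent counted as 0) and those with no peak, and some genes so named are not reported here. Angptl4 was placed by the ends of its span. Alternatives were other windows, stricter q and fold limits, ranking by fold, a replicate block and leaving out each library.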

Additional observations from a re-analysis of the deposited data

Results flagged for a closer look

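The pooled Fed list, which entered no comparison, held 6 peaks in the windows of the 8 genes that overlapped no peak of either Fed library. They lay at Cpt1a (2), Hadha (2) and Fgf21 (2), with folds of 2.92 to 4.33, and 4 of the 6 overlapped a peak of another library, in each case at least Fasted replicate 1. They stood out as signal in data outside the main measurement, and their source was not tested.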

How the results depend on the processing

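With 2 libraries a group no setting could give a p below 0.33, so the p-values say nothing about stability. Stricter limits reduced the Fasted minus Fed difference in peaks to -1 (−log10 q of at least 10) and -3 (fold of at least 5). Ranking the top peaks by fold turned the Fasted minus Fed difference to 0.5 genes. Leaving out each library in turn gave Fasted minus Fed differences of -4 to 0 genes with a peak, -33 to -5 peaks and -2.5 to -0.5 genes among equal top peaks. The Ern1-LKO minus WT differences were -7 to 1 genes, -14.5 to 9.5 peaks and -2 to 0 genes among top peaks. The values of 1 and 9.5, in the other direction, came without Ern1-LKO replicate 1, and the value of 0 genes in Fasted minus Fed came without Fasted replicate 2. The cause was not tested. With the replicate number as a block, the differences were the same, -2 and -3 genes, -19 and -2.5 peaks and -1.5 and -1 genes among top peaks, and the exact p was 0.5 or 1, where 0.5 is the smallest possible. The numbers are not known to pair the libraries: deviations of same-numbered replicates correlated at 0.099 between Fasted and Fed and at 0.70 between Ern1-LKO and WT over 21883 genes. Regions in at least 2 libraries numbered 25, and 25 and 29 with a 50% overlap and with summits within 200 bp. In the pooled lists, a different measure, 22 regions were called in at least 2 groups. List length limits what a missing peak can show, and it does not show that binding was absent.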

Other observations

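For the genes of the axis, the genes with the most similar percentiles of the strongest peak were found by the mean absolute difference over the 8 libraries, outside 100 kb of the gene. The 8 values per gene share the length of their lists, so the likeness is a description. Hadha was nearest to Myadm, at 0.845 percentile points, and Pdk4 to Aup1, at 1.36. Acadm was nearest to Rfx1 and Nkapd1 (at most 2.15). Ppara was nearest to Oxsm (3.36), Fgf21 to Fbxo15 (3.64) and Angptl4 to Gcgr, the glucagon receptor gene (5.64). Cpt2 had no close match, its nearest being Arpp21 at 8.66 points.

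In Ern1-LKO replicate 1, the nearest summit to the 8 genes lay 45.6 kb outside Fgf21 and 1656.6 kb outside Acadm at the extremes. In Fasted replicate 2, the nearest summits to the 4 genes without a peak lay 13.2 to 19.8 kb outside their spans.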
